A study of Homo sapiens with 15 samples.

Results

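Cytoplasmic ribosomal protein genes encode the proteins of the large and small subunits of the cytosolic ribosome. Members were the genes of the platform's probe table whose symbol has the form RPL or RPS with a number and an optional A, X, L, AL, AX or L1 ending, or is RPLP0, RPLP1, RPLP2 or RPSA. Pseudogenes and the RPS6 kinases were not taken. The rule used names alone and no measured value. It found 53 members among 14884 named genes, 35 of the large and 18 of the small subunit, and 8 of the 53 were paralogs of another ribosomal protein gene. RefSeq lists 85 symbols of this form, and the other 32, RPLP0, RPLP1, RPLP2, RPL5 and RPSA among them, had no named probe set here.

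The arrays measured total RNA of HEK293T cells, an established human embryonic kidney line. All cells were transfected with Qiagen siRNA and received actinomycin D, an inhibitor of transcription, at 1 ug/mL for 4 hours from 48 hours after transfection. The 5 groups of 3 arrays differed in the siRNA. LOC550643 siRNA was a pool of 4 against the mRNA of NoBody, a small protein of P-bodies, which are granules of mRNA decapping and decay factors. Dcp2 siRNA targeted the decapping enzyme and was the study's related comparison. DcpS siRNA targeted the enzyme that clears cap remnants, and GAPDH siRNA a glycolytic enzyme, both as unrelated comparisons. The non-silencing siRNA matches no human gene and was the reference. No array without actinomycin D was used, so values are levels left after 4 hours of the drug and not half-lives. The labels leave unsaid whether the arrays of 1 group came from different cultures. The p-values therefore rest on the spread between these arrays alone, and that spread may be technical. In such bulk RNA, fewer cells with a transcript and less of it per cell cannot be told apart.

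Values are log2 units of a normalized probe set. DCP2 fell by 1.80 with its siRNA (limma adjusted p = 3.15e-06) and GAPDH by 1.23 with its own (limma adjusted p = 2.7e-05), while the knockdown of LOC550643 and of DCPS, for which the probe table names no probe set, is not analysed here. DCP2 also fell by 0.54 with DcpS siRNA (limma adjusted p = 0.0252). Of the HEK293T markers measured, IRS4 averaged 8.90, LIN28B 8.48 and KRT18 8.72, PAX2, KRT8 and EPCAM were lower at 5.65, 6.06 and 4.92, and NR0B1 and NEFM were not measured. IRS4 fell by 1.18 with Dcp2 siRNA and LIN28B by 0.46 with DcpS siRNA (limma adjusted p of 0.0307 and 0.0153), and the part of such shifts in the results below was not tested. Markers of fibroblasts (DCN at 2.39, LUM at 3.28), blood (CD14 at 3.50) and hepatocytes (ALB at 3.49) lay below the 5.47 median of all genes, as did APOA1 at 4.98.

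Ribosomal protein mRNAs are abundant, long-lived transcripts of housekeeping genes. Most begin at a cytosine followed by a run of pyrimidines, the terminal oligopyrimidine (TOP) motif. This motif lets mTOR signalling, through LARP1 and the 4E-BP proteins, set their translation and LARP1 their stability. Decapping removes the cap beside this motif before an mRNA is degraded from its 5′ end. Many ribosomal protein genes also have processed pseudogenes, whose near-identical sequence can share probes, so the value of a member may hold signal of such copies.

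The start sites below are shown because the cap and the TOP motif lie there. They are those of the members called in a pairwise comparison (RPL22L1, RPL27 and RPL29), the partner RPL22, and 6 others whose differences are described below. RPL32 has 3 annotated starts. Each line gives 10 bases before and 20 bases from the start that RefSeq annotates in GRCh38.p14, on the gene's strand. Capitals mark a C at the start with the C and T run that follows it, where that run has at least 4 bases.
RPL22L1, chr3:170870176-170870205, minus strand: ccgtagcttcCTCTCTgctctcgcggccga
RPL22, chr1:6199576-6199605, minus strand: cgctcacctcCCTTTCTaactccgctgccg
RPL27, chr17:42998409-42998438, plus strand: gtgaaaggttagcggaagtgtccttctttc
RPL28, chr19:55385922-55385951, plus strand: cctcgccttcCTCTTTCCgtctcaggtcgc
RPL29, chr3:51995876-51995905, minus strand: cagcccctttCTCTTCCggttctaggcgct
RPL32, chr3:12840431-12840460, minus strand: ggtgacccttgacctcctgggatcgcatct
RPL32, chr3:12841546-12841575, minus strand: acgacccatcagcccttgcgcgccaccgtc
RPL32, chr3:12841563-12841592, minus strand: gctaggacccaggggttacgacccatcagc
RPL37A, chr2:216498834-216498863, plus strand: gcgtctcttcCTTTCTgggctcggacctag
RPS24, chr10:78033853-78033882, plus strand: aatcgtggttCTCTTTTCCTCCTTggctgt
RPS7, chr2:3575250-3575279, plus strand: cgccctcctcctcgcgctgtttccgcctct
RPS27L, chr15:63157458-63157487, minus strand: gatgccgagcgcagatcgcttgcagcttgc

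Of the 53 members, 48 had an entry in the RefSeq promoter table, and RPL3L, RPL8, RPL30, RPL39L and RPS15A had none. A C at an annotated start with at least 4 further pyrimidines was present in 31 of the 48 (64.6%), against 5.14% of 27305 genes in the table. Asking for at least 6 pyrimidines left 25 members (52.1%) against 2.68% of genes, and allowing the run to begin within 5 bases of the start gave 37 (77.1%) against 25.2%. Among the start sites printed above, RPS24 has the longest run, with 13 pyrimidines after the C, RPL22L1 and RPL37A have 5, and RPS7 has 2. RPL27, RPL32 and RPS27L show no such run at the annotated bases. That says only that these letters are not at these positions.

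No member passed the test for LOC550643 siRNA, the group the study was built around. Measured against non-silencing, 0 of the 53 members had a limma adjusted p under 0.05, where 1.57% of all genes did. At an unadjusted p under 0.05 the count was also 0 of 53, beside 12.5% of all genes. The differences lay between -0.27 (RPL10L) and 0.45 (RPS7), with 40 of 53 above 0. Their median was 0.04, beside -0.01 over all genes. The 95% interval lay within 0.5 log2 units of 0, a 1.41-fold change, for 47 of 53 members and for 78.4% of all genes.

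Dcp2 siRNA gave the widest range among the members. Again 0 of 53 members passed at a limma adjusted p under 0.05 (1.98% of all genes), and 12 had an unadjusted p under 0.05, 11 higher and 1 lower, beside 16.3% of all genes. The differences ran from -0.33 (RPL39L) to 0.70 (RPS7), 37 were above 0 (50.3% of all genes), and the median was 0.07 beside 0.00 for all genes. With DcpS siRNA the members divided evenly, 26 above and 27 below 0 (50.5% of all genes above), with a median of -0.00 beside 0.00 over all genes. None of the 53 passed (limma adjusted p, 3.61% of all genes), and 5 had an unadjusted p under 0.05, 2 higher and 3 lower, beside 16.1% of all genes. With GAPDH siRNA 45 of 53 were above 0 (50.0% of all genes), and the median was 0.09 beside 0.00 for all genes. There 1 member, RPL22L1, rose past the threshold (limma adjusted p, 2% of all genes). At an unadjusted p under 0.05 there were 4, all higher, beside 13.6% of all genes. These 4 comparisons share the non-silencing arrays, so their directions are not independent of each other. Over the 665 genes averaging at least 9 log2 units, 57.1%, 51.3%, 52.6% and 56.2% were above 0 with LOC550643, Dcp2, DcpS and GAPDH siRNA. Their medians were 0.02, 0.01, 0.01 and 0.03. Of the 20 members as bright, 15, 12, 9 and 18 were above 0, with medians of 0.03, 0.01, -0.02 and 0.08.

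**Figure D1:**
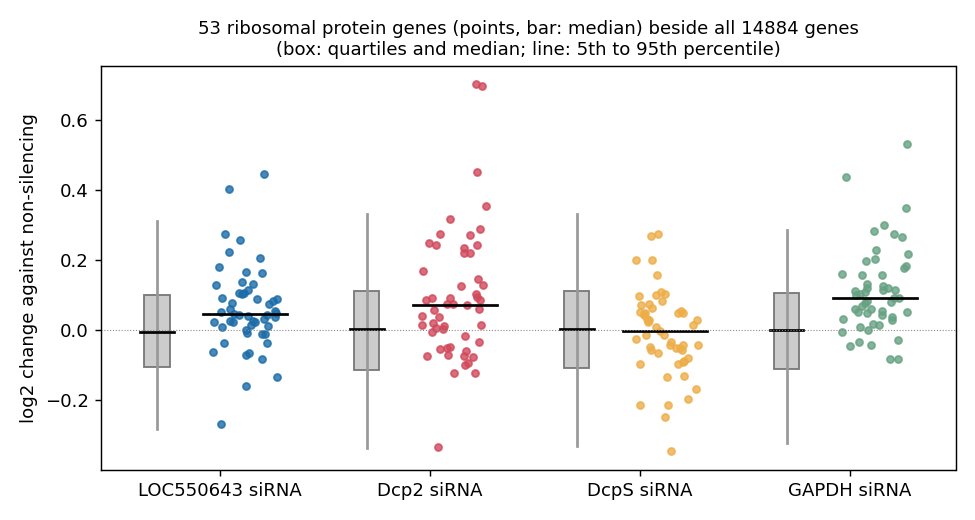
Log2 change against non-silencing for each siRNA. Points are the 53 members with a bar at their median, and the grey box and line beside them give the quartiles and the 5th to 95th percentiles of all 14884 genes. The member medians are 0.04, 0.07, -0.00 and 0.09, and the highest points with Dcp2 siRNA are RPS7 and RPL32.

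The mean level of the family ran from 8.29 to 8.50 log2 units across the arrays, with an SD within groups of 0.05. Every member median given above was smaller than that range. The mean over the 53 members was 8.39, 8.37 and 8.47 log2 units in the LOC550643 siRNA arrays and 8.43, 8.45 and 8.45 with Dcp2 siRNA. It was 8.30, 8.29 and 8.43 with DcpS siRNA, 8.46, 8.41 and 8.50 with GAPDH siRNA, and 8.35, 8.32 and 8.38 in the reference. The Dcp2 and GAPDH arrays all lay above the reference arrays, while the DcpS arrays lay on both sides. The group means were 8.41 ± 0.06, 8.44 ± 0.01, 8.34 ± 0.08, 8.46 ± 0.04 and 8.35 ± 0.03 in that order (SD, n = 3 each). The mean over all named genes stayed between 5.51 and 5.53, as normalization makes the arrays alike, so a shift of every transcript could not be seen.

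**Figure D2:**
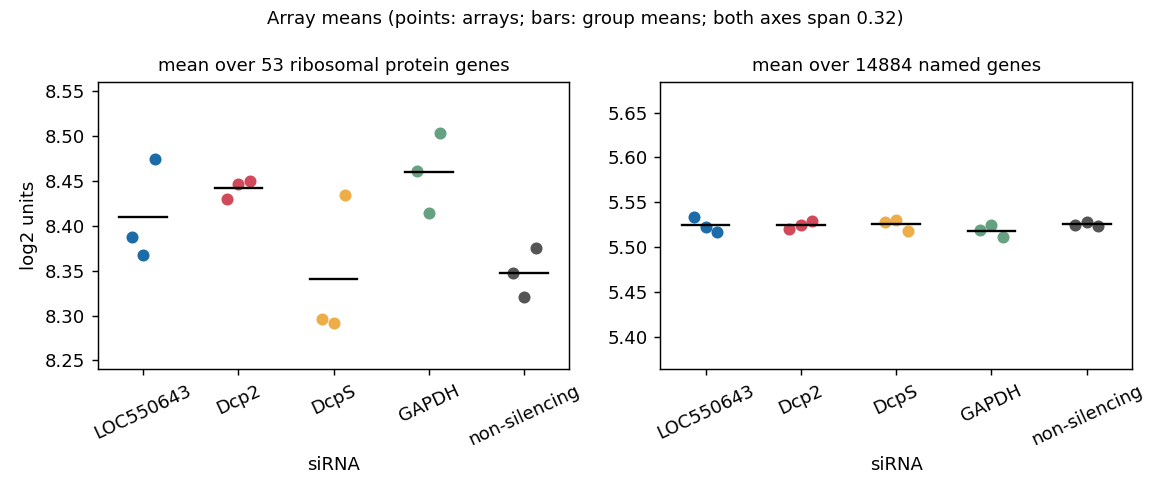
Mean log2 value per array over the 53 members (left) and over all 14884 genes (right), by siRNA, with bars at group means and both axes spanning 0.32. Member means run from 8.29 in a DcpS array to 8.50 in a GAPDH array, while the mean of all genes stays between 5.51 and 5.53.

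Among large subunit members, RPL22L1 and RPL27 differed across the groups. They were the 2 of 53 members that passed limma's F test over the 5 groups (adjusted p of 0.0247 and 0.0274), a share to be read beside 12.2% of all genes. At an unadjusted p under 0.05 the F test took 6 of 53, beside 27.5% of all genes. The count of 2 at the adjusted p became 0 without LOC550643 replicate 1 or GAPDH replicate 1, and 1 without LOC550643 replicate 2, DcpS replicate 1 or 2, or GAPDH replicate 3. The largest member differences other than these lay in transcripts with a wide spread between arrays.

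RPL22L1 encodes a paralog of RPL22, a large subunit protein that binds RNA. Its values were 6.68, 6.62 and 6.73 with GAPDH siRNA and 6.42, 5.96 and 6.05 in the reference. With LOC550643 siRNA they were 6.07, 5.90 and 6.22, with Dcp2 siRNA 6.48, 6.43 and 6.34, and with DcpS siRNA 6.34, 6.06 and 6.50. All 3 GAPDH arrays lay above each of the other 12, and LOC550643 siRNA had the lowest group mean. RPL22L1 was 0.53 higher with GAPDH siRNA than in the reference (SE 0.13, 95% interval 0.25 to 0.80, limma adjusted p = 0.0472). It was 0.61 lower with LOC550643 siRNA than with GAPDH siRNA (log2 change -0.61, SE 0.13, limma adjusted p = 0.0128), and it was the 1 member of 53 called there, where 4.08% of all genes were. The difference from the reference was called in 10 of 16 alternative fits, with limma adjusted p from 0.0143 to 0.205. It was lost without GAPDH replicate 1 (0.137), 2 (0.0764) or 3 (0.142), without non-silencing replicate 2 (0.205) or 3 (0.135), and with only the 6 arrays compared (0.149). The difference between LOC550643 and GAPDH siRNA was lost without LOC550643 replicate 2 (limma adjusted p = 0.0669).

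RPL22 itself did not pass in any comparison. It was at 4.77, 4.80 and 4.82 with GAPDH siRNA, 4.69, 4.62 and 4.74 in the reference and 4.56, 4.60 and 4.25 with DcpS siRNA. The GAPDH arrays lay just above the reference arrays and the DcpS arrays below them. Its difference from the reference was 0.11 with GAPDH siRNA (SE 0.10, limma adjusted p = 0.714) and -0.21 with DcpS siRNA (SE 0.10, limma adjusted p = 0.331). Taken per array, RPL22L1 less RPL22 was 1.91, 1.82 and 1.91 with GAPDH siRNA, 1.72, 1.34 and 1.32 in the reference and 1.36, 1.17 and 1.79 with LOC550643 siRNA. It was 1.93, 1.78 and 1.79 with Dcp2 siRNA and 1.78, 1.46 and 2.25 with DcpS siRNA. The GAPDH arrays lay above those of the reference and of LOC550643 siRNA, while Dcp2 replicate 1 and DcpS replicate 3 lay above every GAPDH array.

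RPL27, a large subunit protein found mutated in some families with Diamond-Blackfan anaemia, was low with DcpS siRNA. It measured 10.54, 10.30 and 10.59 there, and 10.94, 10.64 and 10.89 in the reference. With LOC550643 siRNA it was 10.92, 10.82 and 10.96, with Dcp2 siRNA 10.68, 10.83 and 10.75, and with GAPDH siRNA 11.00, 10.89 and 10.94. The 3 DcpS arrays were the lowest of all 15. RPL27 was 0.42 higher with LOC550643 than with DcpS siRNA (SE 0.10, limma adjusted p = 0.0196), the 1 of 53 members called where 6.4% of all genes were. It was also the 1 member called for DcpS against GAPDH siRNA (log2 change -0.47, SE 0.10, limma adjusted p = 0.0104, 5.98% of all genes). In that comparison 48 of the 53 members were below 0, beside 7485 of 14884 genes, and the medians were -0.10 and -0.00. Against the reference itself the difference was -0.35 (SE 0.10, limma adjusted p = 0.0727), and 3 of 16 alternative fits called it, among them the fit without non-silencing replicate 2 (0.0444). Without DcpS replicate 2, its lowest array, the limma adjusted p was 0.0902 against LOC550643 and 0.0547 against GAPDH siRNA. Against LOC550643 siRNA it was 0.0706 without LOC550643 replicate 1 and 0.0704 without replicate 3. Without DcpS replicate 3, RPL28 and RPS16 were called beside RPL27 against LOC550643 siRNA, so the count rose from 1 to 3, and RPL28 beside it against GAPDH siRNA, a rise from 1 to 2. Over all genes the calls fell in that fit, from 953 to 863 against LOC550643 siRNA and from 890 to 722 against GAPDH siRNA.

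The 120 bases before the annotated starts of these 2 members are printed because they alone passed the test across groups. Capitals mark TATAAA, searched on both strands with CCGGAAG (a core bound by ETS factors such as GABP) and CCAAT.
RPL22L1, chr3:170870196-170870315, minus strand: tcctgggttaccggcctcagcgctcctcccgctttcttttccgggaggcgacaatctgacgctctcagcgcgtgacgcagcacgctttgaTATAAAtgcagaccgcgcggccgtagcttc
RPL27, chr17:42998299-42998418, plus strand: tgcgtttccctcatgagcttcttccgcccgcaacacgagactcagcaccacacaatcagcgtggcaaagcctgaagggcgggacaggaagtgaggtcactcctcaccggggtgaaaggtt
TATAAA occurs 1 time in the stretch of RPL22L1, and none of the 3 motifs occurs in that of RPL27. Over the 250 bases before each start in the table, CCGGAAG was in 15 of 48 members (31.2%) and 10.2% of genes. TATAAA was in 4 of 48 (8.3%) and 13.0%, and CCAAT in 15 of 48 (31.2%) and 37.0%. These are matches of letters, not sites shown to be bound.

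RPL29, a heparin-binding large subunit protein, was higher with Dcp2 than with DcpS siRNA. It measured 8.57, 8.26 and 8.40 with Dcp2 siRNA, 7.95, 7.95 and 8.12 with DcpS siRNA and 8.12, 7.99 and 8.07 in the reference. The Dcp2 arrays lay above those of DcpS siRNA and of the reference. They overlapped the arrays of GAPDH siRNA (8.39, 8.12 and 8.27) and of LOC550643 siRNA (7.98, 8.05 and 8.29). The difference between Dcp2 and DcpS siRNA was 0.41 (SE 0.11, limma adjusted p = 0.0395), the 1 call among 53 members where 5.64% of all genes were called. It was called in 9 of 16 alternative fits and lost without Dcp2 replicate 1 (0.169) or 3 (0.0927) or DcpS replicate 1 (0.128) or 2 (0.11). Without DcpS replicate 3 the count of members called rose from 1 to 5, with RPL28, RPL37A, RPL6 and RPS26 beside RPL29. Over all genes the calls fell in that fit from 839 to 720. Against the reference, RPL29 with Dcp2 siRNA differed by 0.35 (SE 0.11, limma adjusted p = 0.104). The last 2 comparisons called no member by limma's adjusted p. LOC550643 against Dcp2 siRNA called 0 of 53 (3.2% of all genes, and 5 of 53 beside 16.1% at an unadjusted p under 0.05). Dcp2 against GAPDH siRNA called 0 of 53 (2.79% of all genes, and 8 of 53 beside 15.8% unadjusted). At limma's unadjusted p under 0.05, Dcp2 against DcpS siRNA gave 11 of 53, all higher, beside 2858 of 14884 genes. DcpS against GAPDH siRNA gave 12 of 53, 1 higher and 11 lower, beside 2745. LOC550643 siRNA gave 4, all higher, against DcpS siRNA and 6, all lower, against GAPDH siRNA, beside 2810 and 2519.

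**Figure D3:**
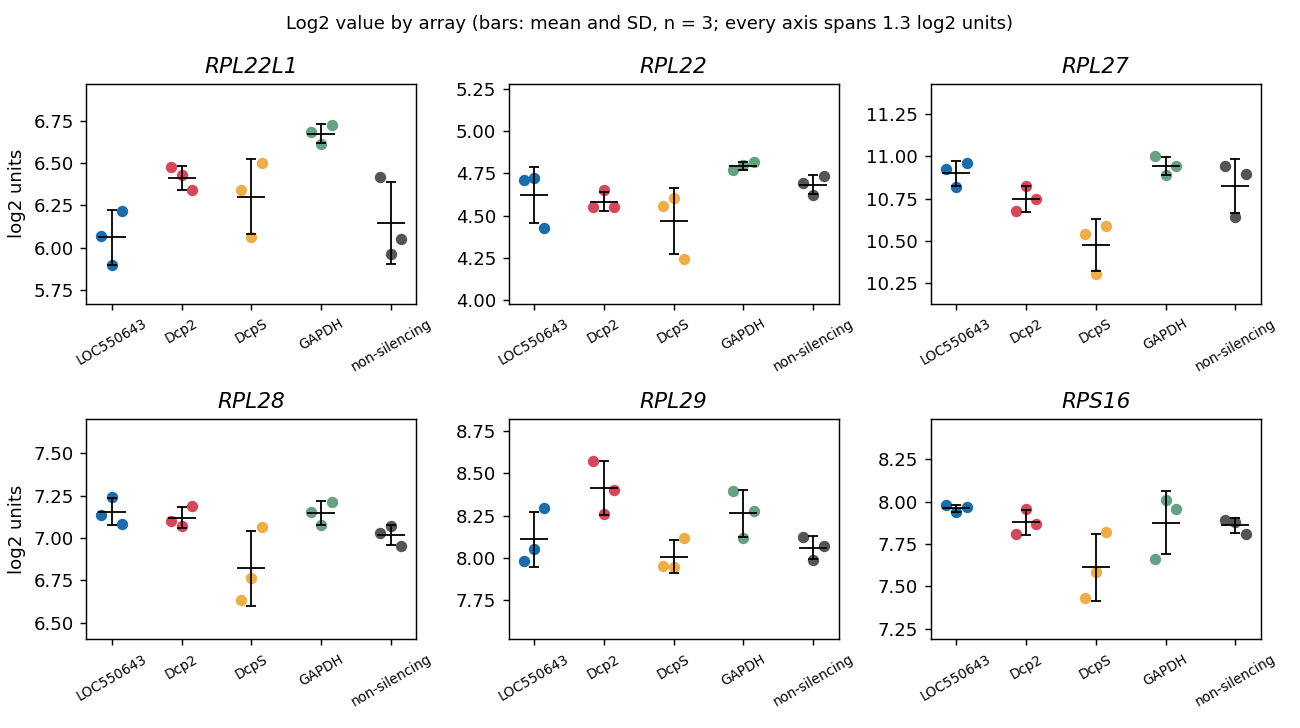
Log2 value of RPL22L1, RPL22, RPL27, RPL28, RPL29 and RPS16 in each array, by siRNA, with the mean and SD of each group (n = 3) and every axis spanning 1.3 log2 units. The GAPDH arrays are the highest for RPL22L1, and the DcpS arrays the lowest for RPL27.

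RPL28 and RPS16 also had their lowest group means with DcpS siRNA. RPL28 measured 6.63, 6.76 and 7.06 there and 7.03, 7.07 and 6.95 in the reference, a difference of -0.20 (SE 0.10, limma adjusted p = 0.369). RPS16 measured 7.43, 7.59 and 7.82 there and 7.89, 7.88 and 7.81 in the reference, a difference of -0.25 (SE 0.11, limma adjusted p = 0.262). The third DcpS array overlapped the reference for both transcripts.

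Small subunit members included the largest difference of the family and some of the steadiest transcripts. RPS7, which like RPL5 and RPL11 can bind MDM2 when outside the ribosome, measured 6.75, 6.73 and 6.75 with Dcp2 siRNA. In the reference it measured 5.38, 6.28 and 6.47, so non-silencing replicate 1 lay far below the other reference arrays. Its difference with Dcp2 siRNA was 0.70 (SE 0.22, limma adjusted p = 0.111), which fell to 0.37 without non-silencing replicate 1 and rose to 0.91 without replicate 3 (limma adjusted p = 0.0446, the 1 member call then made). Over all genes, the fit without replicate 3 called 393 in place of 294. With LOC550643 siRNA RPS7 measured 6.48, 6.42 and 6.57, a difference of 0.45 from the reference (SE 0.22, limma adjusted p = 0.434) that fell to 0.12 without non-silencing replicate 1. With GAPDH siRNA it measured 6.36, 6.38 and 6.69, a difference of 0.44 (SE 0.22, limma adjusted p = 0.416) that fell to 0.11 without non-silencing replicate 1. With DcpS siRNA it measured 5.91, 6.38 and 6.66, a difference of 0.27 (SE 0.22, limma adjusted p = 0.627) that became -0.06 without that array. RPS24, another Diamond-Blackfan anaemia gene, was between 8.16 and 8.36 with LOC550643 siRNA, 8.21 and 8.32 with Dcp2 siRNA and 8.24 and 8.37 with GAPDH siRNA. The reference arrays lay below these 3 groups, at 7.94, 8.07 and 8.05, and the differences of 0.22, 0.25 and 0.28 had limma adjusted p of 0.433, 0.271 and 0.27.

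RPS6, the small subunit protein phosphorylated by the S6 kinases, differed from the reference by 0.22 with Dcp2 siRNA (SE 0.09, limma adjusted p = 0.242). RPS3, at the mRNA entry channel, stayed between 7.75 and 7.98 over all 15 arrays. RPS19, the gene most often mutated in Diamond-Blackfan anaemia, had differences of 0.02, 0.01, -0.06 and 0.10 with LOC550643, Dcp2, DcpS and GAPDH siRNA. RPS14, lost in the 5q- syndrome, had 0.08, 0.07, -0.01 and 0.03. In the same order RPL11 had 0.05, 0.06, 0.02 and 0.11, and RPL38, tied to translation of Hox mRNAs, 0.04, 0.01, 0.03 and 0.07. The 20 differences of RPS3, RPS19, RPS14, RPL11 and RPL38 from the reference each had a limma adjusted p above 0.5. RPL10, a large subunit protein added late in assembly, was below the reference with all 4 siRNAs, by -0.16, -0.12, -0.21 and -0.03, and none passed. RPL14, a large subunit protein, measured 7.07, 7.16 and 7.29 with DcpS siRNA and 6.90, 7.08 and 6.95 in the reference, overlapping groups that differed by 0.20 (SE 0.12, limma adjusted p = 0.474). RPS18, a small subunit protein, measured 9.33, 9.35 and 9.01 with GAPDH siRNA and 9.37, 9.12 and 9.35 in the reference. Those groups overlapped too, and their difference of -0.05 (SE 0.11, limma adjusted p = 0.915) became 0.06 without GAPDH replicate 3. The other named probe set of RPS18 differed by 0.08 with GAPDH siRNA.

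**Figure D4:**
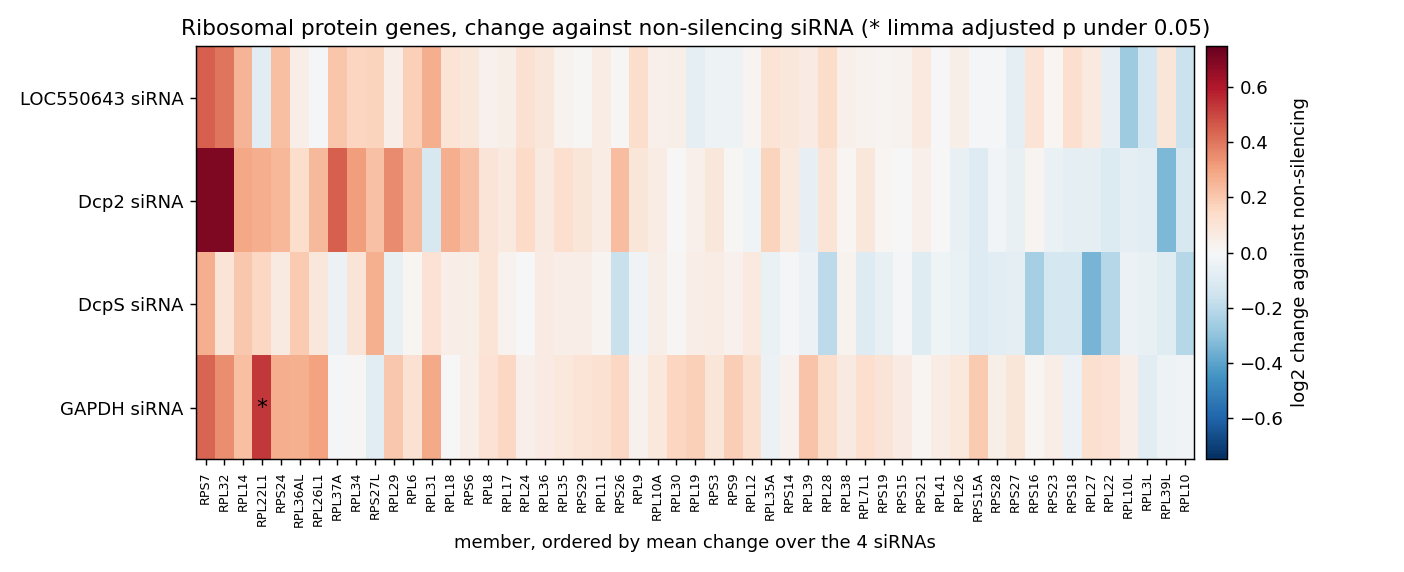
Log2 change against non-silencing of each of the 53 members (columns, ordered by mean change) with each siRNA (rows). The scale runs from -0.75 to 0.75 and the asterisk marks the single limma adjusted p under 0.05, RPL22L1 with GAPDH siRNA. RPS7 and RPL32 have the strongest colour with Dcp2 siRNA and RPL27 the strongest blue with DcpS siRNA.

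The 8 paralog members differ from their partners in sequence or in where they are expressed. RPL26L1 was 6.54, 6.63 and 6.71 with GAPDH siRNA and 6.45, 6.21 and 6.31 in the reference. The GAPDH arrays lay above the reference, by 0.30 (SE 0.11, limma adjusted p = 0.201), while its partner RPL26 differed by 0.08. RPL36AL differed by 0.27 with GAPDH siRNA (SE 0.09, limma adjusted p = 0.183) and by 0.20 with DcpS siRNA (SE 0.09, limma adjusted p = 0.299). RPS27L, a paralog of RPS27 induced by p53, was 0.27 above the reference with DcpS siRNA (SE 0.12, limma adjusted p = 0.299) and -0.08 from it with GAPDH siRNA, while RPS27 had -0.07 and 0.09. The first of these RPS27L differences was 0.14 without DcpS replicate 3, and the second 0.02 without GAPDH replicate 1. RPL39L, a testis-enriched paralog of RPL39, was 6.13, 6.08 and 6.18 with Dcp2 siRNA and 6.74, 6.37 and 6.27 in the reference. The Dcp2 arrays lay below, by -0.33 (SE 0.15, limma adjusted p = 0.262, and -0.19 without non-silencing replicate 1), and RPL39 differed by -0.06. The testis paralog RPL10L and the muscle paralog RPL3L averaged 3.05 and 4.89, and RPL7L1 8.57. Their differences from the reference ran from -0.27 to 0.12 and none passed. RPL39 had 2 named probe sets that went opposite ways with GAPDH siRNA, 0.22 and -0.20, and RPL41 had 5, from 0.05 to 0.23 with that siRNA. With Dcp2 siRNA the 2 of RPL39 were at -0.06, the one used, and 0.21. Those of RPL41 ran from -0.08 to 0.37 there, with 0.00 for the one used. The 2 of RPL19 were alike with GAPDH siRNA, at 0.18 and 0.21.

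Members varied less within groups than most genes. The SD within groups had a median of 0.104 over the members and 0.147 over all genes. Among transcripts averaging at least 9 log2 units it was 0.0847 over 20 members and 0.101 over 665 genes. The smallest were RPS15 (0.0395), RPL8 (0.0413) and RPL26 (0.0463), and the largest RPL32 (0.353), RPS7 (0.322) and RPL31 (0.252). Bright probe sets lie nearer the top of the array's range, and their differences can be compressed. RPL31 was 5.75, 5.17 and 5.44 with LOC550643 siRNA and 5.30, 5.10 and 5.14 in the reference, so these groups overlapped.

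Part of this spread was shared between members. The first principal component of the deviations of all genes from their group means, here called the shared axis, held 24.7% of that variance. Within groups, 5 members correlated with it above 0.8 over the 15 arrays, RPL37A (0.93), RPL32 (0.90), RPL35A (0.86), RPS7 (0.85) and RPS24 (0.83). The share of all genes above 0.8 was not counted. Across the 53 the correlation ran from -0.76 (RPL39L) to 0.93 with a median of 0.26, and 17 were below 0. The arrays share normalization, and these are descriptions. Scores on the axis were -20.2, -0.81 and 4.09 in the reference arrays and 10.7, 7.89 and 4.00 with Dcp2 siRNA. They ran from -5.43 to 11.6 with LOC550643, -16.7 to 4.58 with DcpS and -11.5 to 11.8 with GAPDH siRNA, so all 5 groups overlapped. The group means lay between -5.64 ± 12.8 in the reference and 7.52 ± 3.35 with Dcp2 siRNA (SD, n = 3 each), and non-silencing replicate 1 had the lowest score of all arrays. RPL32 was 7.06, 6.95 and 7.10 with Dcp2 siRNA and 6.02, 6.46 and 6.54 in the reference, a difference of 0.70 (SE 0.24, limma adjusted p = 0.149). RPL37A was 7.03, 7.12 and 7.03 and in the reference 6.38, 6.76 and 6.70, a difference of 0.45 (SE 0.15, limma adjusted p = 0.142). The Dcp2 arrays lay above the reference for both. With the axis score as a covariate the differences of RPL32, RPS7 and RPL37A with Dcp2 siRNA were 0.30, 0.36 and 0.20, and that of RPL39L was -0.15. The score keeps its difference between the groups. In this fit a member correlated with the axis therefore had to shift, down for a positive and up for a negative correlation. Over all genes the fit called 124 for Dcp2 siRNA against the reference, in place of 294. The difference of RPL22L1 with GAPDH siRNA was 0.54 in it (limma adjusted p = 0.0377). What the axis stands for was not tested.

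**Figure D5:**
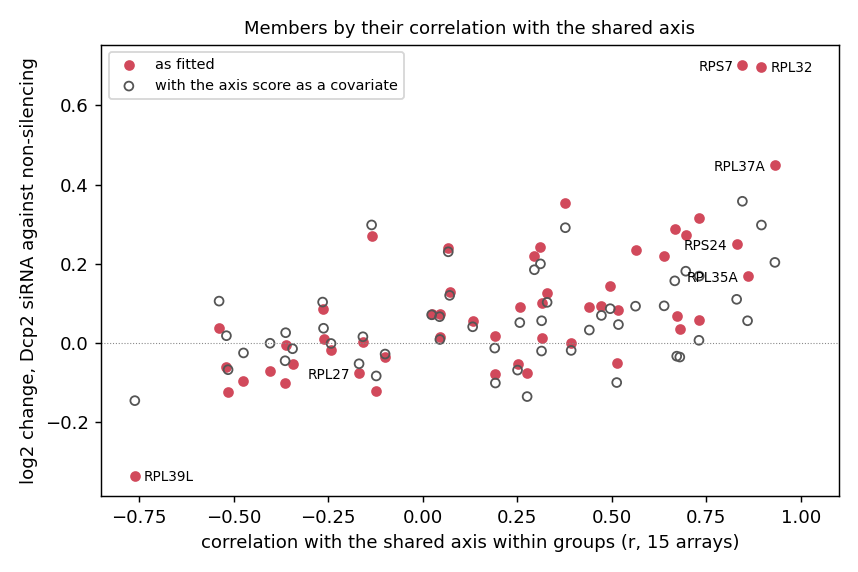
Log2 change of each member with Dcp2 siRNA against non-silencing (vertical) by its correlation with the shared axis within groups (horizontal), as fitted (filled) and after adjustment for the axis score (open). RPS7, RPL32 and RPL37A, at correlations of 0.85 to 0.93, go from 0.70, 0.70 and 0.45 to 0.36, 0.30 and 0.20. The mean axis score is higher with Dcp2 siRNA, so the adjustment lowers members with a positive correlation and raises those with a negative one.

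Members with and without the TOP start at an annotated base had like medians. Over the 31 with it the median differences with LOC550643, Dcp2, DcpS and GAPDH siRNA were 0.06, 0.06, -0.01 and 0.08. Over the 17 others with a table entry they were 0.04, 0.09, 0.03 and 0.12. RPS7 and RPL32, with the 2 largest differences for Dcp2 siRNA, have no such start at the annotated bases. Each has such a run beginning within 5 bases of an annotated start, with 6 and 5 pyrimidines after the C. The classes thus depend on the exact annotated base. Medians under the wider rule, which took 37 members, were not computed.

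Other genes of ribosome production were counted from lists of their roles. These lists, with those of the next paragraph, were chosen with earlier results of these data known, so the counts are descriptions and not tests. Over all genes 1.57%, 1.98%, 3.61% and 2% were called with LOC550643, Dcp2, DcpS and GAPDH siRNA against the reference. Of 41 measured ribosome assembly and rRNA processing genes, 2 rose and 0 fell with LOC550643 siRNA, 5 rose and 1 fell with Dcp2 siRNA, 4 rose and 0 fell with DcpS siRNA, and 2 rose and 1 fell with GAPDH siRNA. NOLC1, a nucleolar chaperone of snoRNPs, rose in all 4, by 0.90, 0.99, 1.02 and 0.36 (limma adjusted p of 3.49e-05, 8.44e-06, 8.83e-06 and 0.0307). LTV1, a small subunit assembly factor, rose with LOC550643 (0.56), Dcp2 (0.52) and DcpS siRNA (0.44). PNO1 (0.66) and NIP7 (0.55), also assembly factors, rose with Dcp2 siRNA, and RRP1B fell there by 0.94. SBDS (0.54) and NMD3 (0.39), factors of late large subunit maturation, rose with DcpS siRNA. With GAPDH siRNA NOP10 rose by 0.39 and NAT10 fell by 0.50.

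Of 13 other measured mRNAs with TOP starts, 1 fell with LOC550643 siRNA, the elongation factor subunit EEF1G by 0.38 (limma adjusted p = 0.0226), and none passed with the other 3. Of 10 regulators of TOP mRNA, EIF4EBP1 fell by 0.67 with LOC550643 siRNA, MTOR by 0.61 with Dcp2 siRNA and EIF4EBP2 by 0.42 with GAPDH siRNA, 1 called gene each, and DcpS siRNA had 0. Of 9 RNA polymerase I and III genes, RRN3 (-0.54) and POLR3G (-0.39) fell with Dcp2 siRNA, GTF3A rose by 0.45 with DcpS siRNA, and MAF1, a repressor of polymerase III, fell by 0.96 with GAPDH siRNA. Of 9 transcription factors of ribosomal protein genes, 1 fell, MYC by 0.68 with GAPDH siRNA. Of 9 genes listed for the p53 response, SESN2 rose by 0.76 with Dcp2 siRNA, and with DcpS siRNA RRM2B rose by 0.46 and PMAIP1 fell by 1.11. Activity of p53 was not tested. Of 16 genes of ribosomal protein import and quality control, TCF25 (-0.69) and NEMF (-0.37) fell with Dcp2 siRNA. The lists not named for an siRNA had 0 called genes with it.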

How the data were processed

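The values were deposited as 1 log2 value per probe set and array. Per the submitters' processing notes they were made with RMA (background correction, quantile normalization, summarization) and the oligo package. Versions, probe set definition and genome build are not given in the sources used here, and the log2 base was inferred from the range. The number of arrays limits the precision. Of 53617 probe sets, 16098 had 1 gene symbol, 0 had several and 37519 were unnamed. The probe set with the highest mean stood for a gene, which gave 14884 genes. All 15 arrays, grouped by their labels, entered 1 linear model in limma 3.58.1 (R 4.3.3) with a mean per group. P-values were two-sided and adjusted by Benjamini-Hochberg over all genes of a contrast. The 10 contrasts between groups and an F test were run. The fit was tested on simulated data.

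Members and lists were chosen with earlier results of these data known. Genes named were members past the threshold in any test, the 3 largest changes each way against non-silencing, paralogs with their partners, the 3 largest and smallest SDs, members with set roles, targeted genes, and up to 4 called genes per list and contrast. RPL28, RPS24, RPL35A, RPL6, RPS26, RPL41, RPL18, RPL34 and RPL19 were named outside this rule, after their values were seen. So was LTV1 with Dcp2 siRNA, which lay beyond the 4 of its list there. Counts at an unadjusted p, the band of 0.5 log2 units, the separate probe sets of a member and the difference of RPL22L1 and RPL22 were also added after seeing the data.

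Replicate numbers were checked for pairing by the correlation of same-numbered arrays' deviations from their group means. It ran from -0.198 to 0.394 and passed 0.1 in 9 of 30 pairs. In DcpS against non-silencing alone all 3 did (0.394, 0.110 and 0.124), and there a replicate block left 0 members called.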

Additional observations from a re-analysis of the deposited data

How the results depend on the processing

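No called difference changed direction under any alternative run. The 4 median differences moved by less than 0.066, the SD within groups of the array median over members. That SD exceeds the LOC550643 and DcpS medians in size, so this limit says little about them, and the DcpS median took either sign. Left-out single arrays gave medians from 0.02 to 0.07 for LOC550643, 0.04 to 0.08 for Dcp2, -0.05 to 0.03 for DcpS and 0.07 to 0.12 for GAPDH siRNA.

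Counts of members called moved as follows, and the cause was not tested. The replicate block gave 2 for Dcp2 against non-silencing, where it was 0 (RPL32, adjusted p 0.0423, and RPS7, 0.048), and 4 in place of 1 for Dcp2 against DcpS. The labels give same-numbered arrays a shared number and leave unsaid whether they were handled together. The block moved no other member count past 1.5 times. Over all genes it called 436 in place of 294 for Dcp2 against non-silencing, and 898 in place of 839 for Dcp2 against DcpS. Leaving out genes under a mean of 5, which drops 3 of the 53 members (RPL10L, RPL22 and RPL3L), gave 1 for DcpS against non-silencing, 3 for LOC550643 against DcpS, 2 for Dcp2 against DcpS and 2 for DcpS against GAPDH. Over all genes kept, the calls were 750, 1214, 1088 and 1123 in that order, in place of 538, 953, 839 and 890. An intensity trend with robust estimation gave 1 for DcpS against non-silencing, where it called 655 of all genes in place of 538. Repeated quantile normalization gave 0 for Dcp2 against DcpS, where it called 886 of all genes in place of 839. The axis covariate gave 0 for Dcp2 against DcpS and 3 for DcpS against GAPDH. Over all genes it called 838 in place of 839 and 1413 in place of 890 there. Fitting only the 6 arrays compared gave 0 for GAPDH against non-silencing, LOC550643 against DcpS, Dcp2 against DcpS and DcpS against GAPDH, and 1 for LOC550643 against Dcp2. Over all genes the calls were 44, 446, 462, 394 and 358 in that order, in place of 297, 953, 839, 890 and 477. Leaving out 1 array gave 0 to 1 for Dcp2, DcpS and GAPDH against non-silencing and for LOC550643 against GAPDH. It gave 0 to 3 for LOC550643 against DcpS and for the F test, 0 to 5 for Dcp2 against DcpS and 0 to 2 for DcpS against GAPDH. It left 0 for LOC550643 against non-silencing and against Dcp2, and for Dcp2 against GAPDH. Over all genes the calls without 1 array ran from 41 to 393, 276 to 466 and 139 to 239 for Dcp2, DcpS and GAPDH against non-silencing. They ran from 304 to 478 for LOC550643 against GAPDH and 536 to 863 for LOC550643 against DcpS. For Dcp2 against DcpS they ran from 445 to 720, and for DcpS against GAPDH from 573 to 722.

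With 3 arrays a group, the median 95% half-width of a member's difference was 0.21 log2 units, so smaller differences were not resolved. Levels are relative, probes may be shared with pseudogenes, and 32 ribosomal protein symbols were not measured here.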

Other observations

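Probe sets named for ribosomal protein pseudogenes were counted with the same fit, a list chosen after seeing the data. Of 25 such transcripts, 0 passed in any comparison with non-silencing by limma's adjusted p, and 0, 1, 0 and 3 had an unadjusted p under 0.05 with LOC550643, Dcp2, DcpS and GAPDH siRNA, beside 12.5%, 16.3%, 16.1% and 13.6% of all genes. By limma's adjusted p, 1 was called for LOC550643 against GAPDH, 1 for Dcp2 against DcpS, 1 for Dcp2 against GAPDH and 2 for DcpS against GAPDH siRNA (4.08%, 5.64%, 2.79% and 5.98% of all genes), and 0 for LOC550643 against Dcp2 or DcpS. Their median differences were 0.03, 0.01, -0.00 and 0.03. The median 95% half-width was 0.30, wider than that of the members. Among the members themselves, the median correlation of deviations over the 1378 pairs was 0.19, and that over pairs of all genes was not computed. The 5 members above 0.8 on the shared axis were picked for that, so their pairs had to correlate positively. Those pairs ran from 0.53 (RPL35A with RPS7) to 0.92 (RPL37A with RPS24 or with RPL32). RPL18, RPL34 and RPL11 had correlations with the shared axis of 0.70, 0.73 and 0.73, while RPL19, RPL39 and RPL10 had -0.54, -0.52 and -0.52.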
